A study of Mus musculus with 6 samples.

Results

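The transcription factors described here are 6 genes that pattern the female reproductive tract or act in the adult uterus: Hoxa10, Hoxa11, Gata2, Hand2, Sox17 and Msx1. Their members were taken by name, as every probe set whose only annotated gene was one of these symbols, which gave 8 of the 12422 probe sets that are not controls. By gene these are 6 of the 8251 symbols that stand alone on a probe set. Gata2 and Sox17 had 2 probe sets each and the other genes 1. Of the 8, 7 passed the filter on low values, all of them above the floor on all 6 arrays, out of 7731 probe sets analysed. The second Gata2 probe set, 161820_f_at, exceeded the floor on 1 array and was described only.

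RNA came from whole uterine horns of 129/SvImJ wildtype female mice of 10 to 16 weeks, 14 days after ovariectomy, which removes the ovarian source of steroid hormones. The groups were uninjected ovariectomized mice, called 0 h, and ovariectomized mice 6, 12, 15, 18 and 24 h after progesterone (0.2 mg, given once under the skin in 0.1 mL of sesame oil). Each group was 1 Affymetrix array of 1 RNA pool from 8 horns of 4 mice, so no group had a replicate, and the 6 arrays limit the precision of every value. Oil alone was not analysed here, and all differences share 1 uninjected array. Values are log2 expression as deposited, with a floor at 6.60, and the median per array lay between 7.12 and 7.22. The question addressed is how the level of each factor stood over the first 24 h after progesterone, relative to the uninjected uterus.

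Progesterone acts on the uterus through its receptor, Pgr, in epithelium, stroma and muscle, and prepares the organ for implantation. Hoxa10 and Hoxa11 are neighbouring homeobox genes of the HoxA cluster, needed in mice for stromal function and fertility. Hand2, a basic helix-loop-helix factor of the stroma, is known in mice to restrain fibroblast growth factors that drive the epithelium. Gata2, a zinc finger factor, and Sox17, a high-mobility-group factor, act in the mouse uterine epithelium upstream of the hedgehog ligand Ihh. Msx1, a homeobox repressor, is known in mice for its presence in the epithelium before implantation and its loss when implantation starts.

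Hoxa11, Gata2 and Hoxa10 had their highest level of the 6 arrays at 6 h and stayed above 0 h at every later time. Hand2 was also above 0 h at all 5 times, by less, while Sox17 was above 0 h early and below it at 18 h, and Msx1 lay near 0 h until 15 h and below it at 18 and 24 h. None of the 7 analysed probe sets passed limma's test of the 5 progesterone arrays against 0 h after Benjamini-Hochberg adjustment over all 7724 probe sets tested, and 4 of the 7 had an unadjusted p under 0.05, as did 19% of all.

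**Figure D1:**
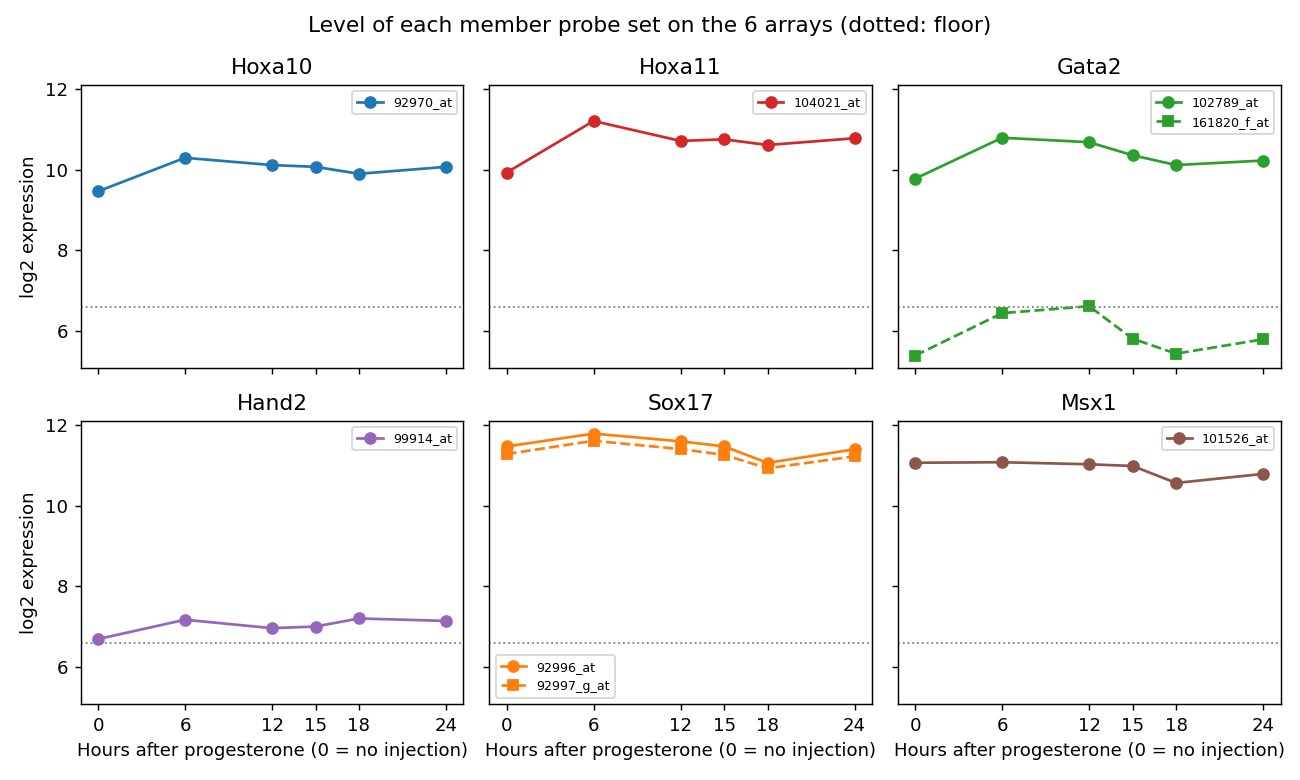
Log2 expression (y axis) of each of the 8 member probe sets against hours after progesterone (x axis), 1 array per point, with 0 h the uninjected uterus and the dotted line the floor of 6.60. Hoxa11 stood at 11.21 at 6 h, against 9.93 at 0 h, while Msx1 stood at 11.08 at 6 h, against 11.06 at 0 h.

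The bases in front of the annotated starts of Hoxa10, Hoxa11 and Gata2 are shown because these genes had the largest differences from 0 h among the members. Each line gives the 250 bases upstream of the RefSeq start of build GRCm38.p6, 5′ to 3′ on the gene's strand, at chr6:52240855-52241104 (minus strand) for Hoxa10, chr6:52245811-52246060 (minus strand) for Hoxa11 and chr6:88193641-88193890 (plus strand) for Gata2. Of the 2 starts listed for Hoxa10 and for Gata2, the one farther upstream is shown. Capitals mark matches to AGAACA on either strand, the half-site bound by the progesterone and glucocorticoid receptors.
Hoxa10: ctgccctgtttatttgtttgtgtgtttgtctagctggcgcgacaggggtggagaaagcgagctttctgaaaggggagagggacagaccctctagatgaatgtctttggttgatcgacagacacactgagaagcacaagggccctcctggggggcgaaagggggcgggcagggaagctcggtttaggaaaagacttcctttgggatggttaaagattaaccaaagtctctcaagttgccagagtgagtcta
Hoxa11: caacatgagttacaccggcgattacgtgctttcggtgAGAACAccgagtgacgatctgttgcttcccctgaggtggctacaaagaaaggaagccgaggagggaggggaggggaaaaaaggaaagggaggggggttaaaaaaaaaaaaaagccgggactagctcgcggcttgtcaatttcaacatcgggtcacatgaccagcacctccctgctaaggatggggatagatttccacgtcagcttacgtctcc
Gata2: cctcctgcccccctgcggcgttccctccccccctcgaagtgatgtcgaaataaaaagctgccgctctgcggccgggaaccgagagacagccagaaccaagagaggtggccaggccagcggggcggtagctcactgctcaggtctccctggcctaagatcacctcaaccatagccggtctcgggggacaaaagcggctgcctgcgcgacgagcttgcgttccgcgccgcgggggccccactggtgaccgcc
The Hoxa11 window held 1 match, starting 213 bases before the start, and the windows of both Hoxa10 starts, both Gata2 starts, Hand2 and Msx1 held 0. The half-site was present in 16.1% of all 32851 such windows, so 1 match among these genes is a description of letters and not of a binding site. The full palindrome, AGAACA followed after 3 bases by its reverse complement, was in 0 of these genes' windows and in 3 of all windows. The GATA boxes AGATAA and TGATAA, searched on both strands, had 2 matches in the Hand2 window and 0 in the others, and were present in 16.6% of all windows. The window of Hoxa11 lies within the annotated Hoxa11os gene, which runs antisense to Hoxa11 and overlaps it. Sox17 has no entry in the table used.

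Hoxa11 (probe set 104021_at) had log2 levels of 9.93 at 0 h and 11.21, 10.72, 10.76, 10.62 and 10.78 at 6, 12, 15, 18 and 24 h. All 5 progesterone arrays were above the 0 h array, with 6 h apart from the rest. The differences were 1.28, 0.78, 0.82, 0.68 and 0.85 in order of time, a 2.43-fold higher level at 6 h and at least 1.61-fold at each time. At 6 h 0.790% of all analysed probe sets had as high a difference or higher, and at 24 h 1.71%. Hoxa11 was the member at least 1.5-fold above 0 h at all 5 times, a pattern that 1.26% of the 6808 probe sets above the floor on every array had. The mean of the progesterone arrays was 10.82 ± 0.23 (SD over 5 times), against 9.93 at 0 h. Limma put the difference at 0.88 ± 0.20 (SE), with an unadjusted 95% interval of 0.41 to 1.36 and an adjusted p of 0.068. Without the 6 h array the difference was 0.79 with an adjusted p of 0.016, and without any other progesterone array the adjusted p stayed between 0.11 and 0.16.

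Hoxa10 (92970_at) had levels of 9.47 at 0 h and 10.30, 10.12, 10.07, 9.90 and 10.07 at 6, 12, 15, 18 and 24 h. Again the progesterone arrays did not overlap the 0 h array, and the 18 h array was the lowest of them. The differences were 0.83, 0.65, 0.61, 0.44 and 0.61, or 1.78-fold at 6 h and 1.52-fold at 24 h. The progesterone arrays averaged 10.09 ± 0.14 (SD over 5 times), against 9.47 at 0 h, and limma gave 0.63 ± 0.15 (SE, unadjusted 95% interval 0.28 to 0.98, adjusted p = 0.076). The adjusted p was 0.041 without the 6 h array and 0.097 to 0.19 without each of the other progesterone arrays.

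Other genes of the HoxA cluster were read along the chromosome, a view chosen after their values were seen. Hoxa9, on the other side of Hoxa10 from Hoxa11, had differences of 0.67, 0.27, 0.14, 0.07 and 0.19 in order of time. Farther along, Hoxa7 lay between -0.21 and 0.26, Hoxa6 between -0.17 and 0.17 and the brightest Hoxa4 probe set between -0.43 and -0.08, while the other analysed Hoxa4 probe set, 162402_r_at, was below the floor at 0 h and lay between 0.00 and 0.46. The Hoxa4 probe sets 97745_at and 97746_f_at were below the floor on all 6 arrays and were not analysed. Hoxa6 and Hoxa7 were close to the floor at 0 h, at 6.85 and 7.16. Hoxa2, Hoxa3, Hoxa5 and Hoxa13 did not pass the filter on low values.

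Hoxa11os, the noncoding antisense transcript of the Hoxa11 locus, had another order of arrays. Its probe set 93873_s_at had levels of 8.57 at 0 h and 9.42, 9.48, 9.65 and 9.89 at 6, 12, 15 and 18 h, with no value at 24 h. Its other probe set, 161670_f_at, had 8.23 at 0 h and 9.08, 9.11, 9.30, 9.31 and 9.84 at 6, 12, 15, 18 and 24 h. On both, each later array was above the one before it, while Hoxa11 was highest at 6 h. Hoxa11os rose on the first probe set by 1.04 ± 0.20 (SE, adjusted p = 0.045), a fit that had 3 residual degrees of freedom and dropped the missing 24 h array. The call was lost with median centring (adjusted p = 0.052), with quantile normalization (0.051), with no filter on low values (0.18) and without the 12, 15, 18 or 24 h array. The other probe set gave 1.10 ± 0.26 (adjusted p = 0.073), and without the 24 h array 0.97 (adjusted p = 0.04997). Its trend over hours was 1.38 ± 0.22 per 24 h (adjusted p = 0.063), and passed with no floor (adjusted p = 0.047). The suffixes of both probe sets mark probes that may pick up related sequences, and whether they separate the strands was not tested.

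**Figure D2:**
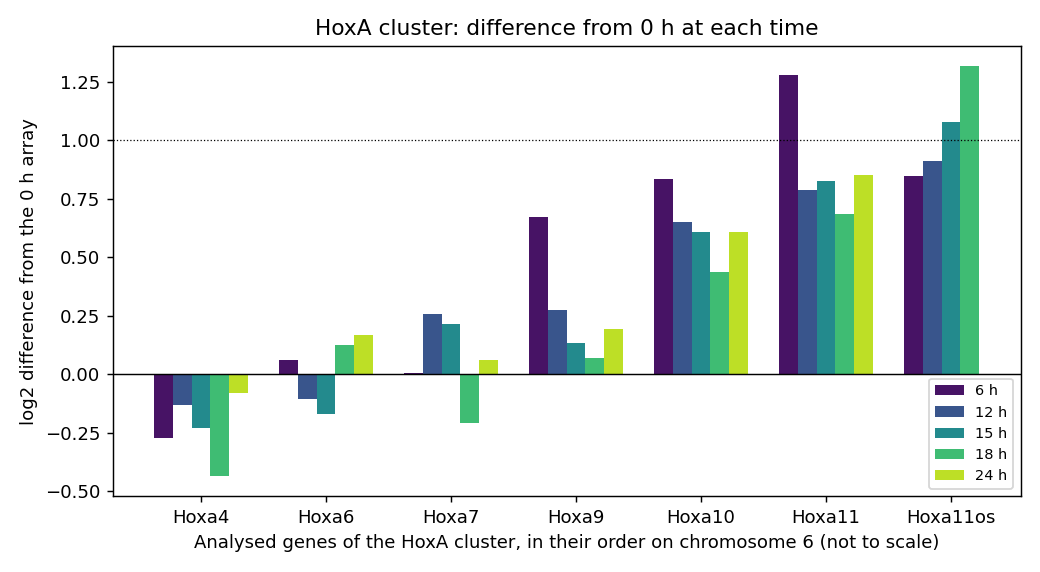
Log2 difference from the 0 h array (y axis) at 6, 12, 15, 18 and 24 h (bars, dark to light) for the analysed genes of the HoxA cluster in their order on chromosome 6 (x axis, not to scale), 1 array per bar; the dotted line marks 2-fold. Hoxa10 and Hoxa11 are above 0 at each time with their highest bar at 6 h, and Hoxa11os is plotted by 93873_s_at, which has no value at 24 h and its highest bar at 18 h.

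Of the list of other Hox genes, 18 of 30 on the array were analysed. Their median differences in order of time were 0.02, 0.19, 0.09, 0.00 and 0.06, beside medians of -0.05, 0.03, 0.03, -0.04 and 0.00 over all analysed probe sets. Of these genes 1, Hoxa11os, rose against 0 h (0.893% of all probe sets tested) and 0 fell (1.8%). The same gene alone was at least 2-fold higher at 1 or more times, where 3.08% of all analysed probe sets were, and 0 were 2-fold lower, where 2.8% were. Hox cofactors of the Meis, Pbx and Pknox families, which help Hox proteins bind DNA, had 4 of 6 genes analysed. Of these 0 were past 2-fold (3.08% of all higher and 2.8% lower), and the medians lay between -0.26 and -0.03.

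Among 6 analysed genes of a list of Hox outputs in the uterus, Cdkn1c, a cyclin-dependent kinase inhibitor, fell by 0.79 ± 0.13 (SE, adjusted p = 0.027). It passed in 1 of the 5 fits that each left out a progesterone array, with adjusted p between 0.024 and 0.10. Ptger3, a prostaglandin E receptor, rose in the trend by 1.0 per 24 h (adjusted p = 0.046). It was below the floor at 0 h, so its difference of 1.07 at 24 h is a lower limit, and it passed in 1 of the 6 fits without an array, with adjusted p between 0.042 and 0.19. Its call was also lost with median centring, quantile normalization, no intensity trend or no filter, with adjusted p between 0.054 and 0.18. The list's medians lay between -0.22 and -0.04.

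Gata2 (102789_at) had levels of 9.78 at 0 h and 10.80, 10.69, 10.36, 10.12 and 10.23 at 6, 12, 15, 18 and 24 h. The 6 and 12 h arrays were highest, and even the lowest progesterone array, 18 h, was above 0 h. The differences were 1.02, 0.91, 0.58, 0.34 and 0.45 in order of time, or 2.02-fold at 6 h. Between 24 h and 6 h the level differed by -0.57, and 4.65% of analysed probe sets had as low a difference or lower between these arrays. Limma gave 0.66 ± 0.25 for the progesterone arrays against 0 h (SE, unadjusted 95% interval 0.08 to 1.23, adjusted p = 0.20). The slope over all 6 arrays was 0.09 per 24 h (adjusted p = 0.94). Without the 0 h array it turned to -0.91 ± 0.24 (adjusted p = 0.090), as the slopes of Hoxa11 and Hoxa10 turned to -0.55 and -0.36. The weak second probe set, 161820_f_at, had deposited values of 5.39, 6.44, 6.62, 5.81, 5.44 and 5.80 in order of time. These are highest at 6 and 12 h and lowest at 0 and 18 h, but all except the 12 h value lie below the floor, and the 0 h value is at 5.39, the lowest value in the table, which 21.6% of all values share.

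The genes most like Gata2 over the 6 arrays, by Pearson r among 411 candidate probe sets, were P4ha2, a collagen prolyl hydroxylase (r = 0.991), Ihh (r = 0.988) and Etnk1, an ethanolamine kinase (r = 0.981). Ihh had levels of 8.22, 9.64, 9.38, 9.10, 8.56 and 8.73 in order of time, so it shared with Gata2 the highest value at 6 h and the lowest progesterone value at 18 h. For Hoxa11 the most similar genes were Myc, a growth regulator (r = 0.988), Fzd1, a WNT receptor (r = 0.978), and Dus1l, a tRNA dihydrouridine synthase (r = 0.978). These r values are descriptions over the same 6 arrays and carry no test. The other members spanned under 1 log2 unit and were not matched.

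**Figure D3:**
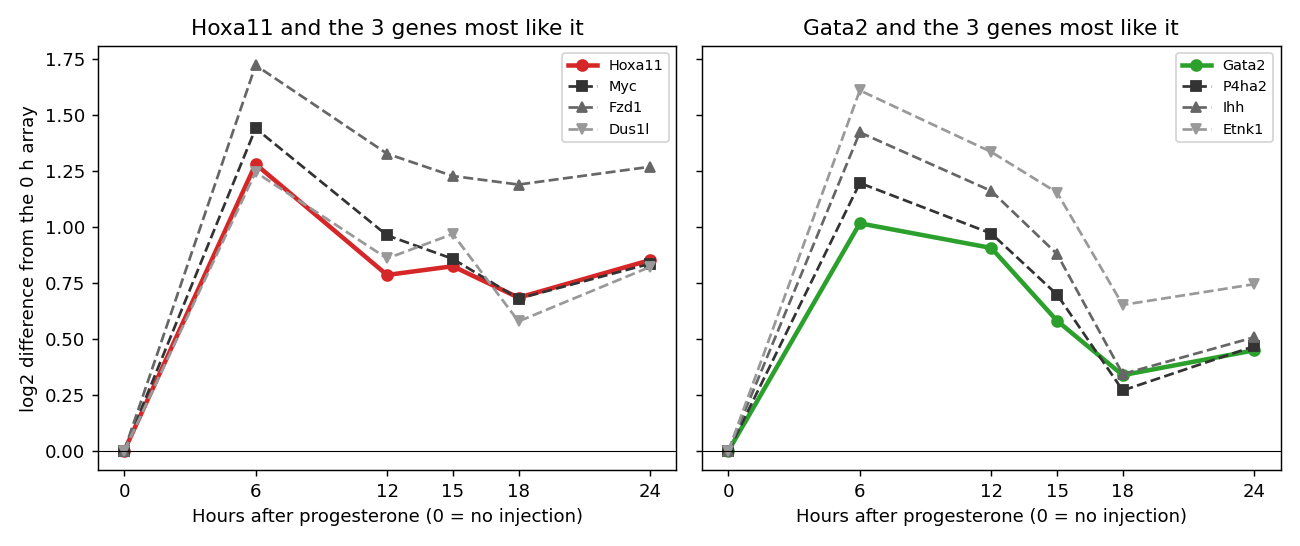
Log2 difference from the 0 h array (y axis) against hours after progesterone (x axis) for Hoxa11 and Gata2 (solid lines) and the 3 genes of highest correlation with each (dashed lines), 1 array per point. Gata2 and Ihh are both highest at 6 h, at 1.02 and 1.42, and lowest after progesterone at 18 h, at 0.34 and 0.34.

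Of the list around Gata2, Sox17 and hedgehog signalling, 10 of 12 genes on the array were analysed. Of these 0 passed either limma fit, where 2.69% of all probe sets passed against 0 h and 0.31% in the trend. At least 2-fold higher at 1 or more times were 4 of the 10, where 3.08% of all analysed probe sets were. These were Ihh, Gli1, a transcription factor induced by hedgehog, Il13ra2, a decoy receptor for interleukins, and Cyp26a1, which breaks down retinoic acid. In the list 0 were 2-fold lower, where 2.8% of all were. Gli1 had differences of 0.85, 0.99, 1.11, 1.41 and 0.66 in order of time and so was highest at 18 h, when Gata2 and Ihh were lowest after progesterone. Il13ra2 was below the floor at 0 h, so its 1.02 at 6 h is a lower limit, as is the 2.44 of Cyp26a1. Pgr, the receptor itself, lay between -0.52 and -0.14 on its probe set (adjusted p = 0.36). The list's medians were -0.03, 0.16, 0.19, 0.31 and 0.06.

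Hand2 (99914_at) had levels of 6.69 at 0 h and 7.17, 6.96, 7.0, 7.20 and 7.14 at 6, 12, 15, 18 and 24 h. It was the dimmest analysed member, just above the floor at 0 h, and its highest array was 18 h, where the others were low. The differences were 0.48, 0.27, 0.31, 0.51 and 0.45, between 1.21-fold and 1.43-fold. Limma gave 0.40 ± 0.13 (SE, unadjusted 95% interval 0.11 to 0.70, adjusted p = 0.14). With a floor raised to the 60th percentile of all values Hand2 was no longer analysed.

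Among 12 genes listed as outputs of Hand2 or their receptors, 6 were analysed, and Fgf2, Fgf7, Fgf9, Fgf10, Fgf12 and Il15 did not pass the filter. Fgf1, a fibroblast growth factor, was at least 2-fold higher at 15 h, at 1.32, and had 0.21, 0.87, 0.58 and 0.73 at 6, 12, 18 and 24 h (adjusted p = 0.28). None of the list passed either limma fit (2.69% of all against 0 h and 0.31% in the trend). Its medians lay between -0.33 and -0.05.

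Sox17 was read by 2 probe sets made to the same sequence record. On 92996_at it had 11.47 at 0 h and 11.79, 11.59, 11.47, 11.06 and 11.40 at 6, 12, 15, 18 and 24 h. On 92997_g_at it had 11.28 at 0 h and 11.61, 11.40, 11.26, 10.93 and 11.22 at the same times. Both were highest at 6 h and lowest at 18 h, and the progesterone arrays lay on both sides of 0 h. The differences on the first were 0.32 at 6 h and -0.41 at 18 h, and on the second 0.33 and -0.35, so none reached 1.5-fold. Limma put the mean difference at -0.01 (unadjusted 95% interval -0.53 to 0.52) and 0.00 (-0.50 to 0.51), with adjusted p of 0.99 on both. Mean differences within those bounds are not excluded. The mean joins times above and below 0 h, so it does not describe the change at a single time. The sign of so small a mean turned with the scaling, to 0.02 on 92996_at with median centring and to -0.04 on 92997_g_at with quantile normalization.

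Msx1 (101526_at) had 11.06 at 0 h and 11.08, 11.03, 10.98, 10.56 and 10.79 at 6, 12, 15, 18 and 24 h. Its arrays up to 15 h lay within 0.08 of 0 h, and those at 18 and 24 h were below it, at -0.50 and -0.28. The step of -0.42 from 15 to 18 h was of a size that 5.56% of analysed probe sets reached in either direction. Limma put the mean difference from 0 h at -0.18 ± 0.19 (SE, unadjusted 95% interval -0.62 to 0.27). Without the 18 h array it was -0.09. The slope over hours was -0.40 ± 0.18 per 24 h (SE, unadjusted 95% interval -0.82 to 0.01, adjusted p = 0.32). Of 9 analysed genes listed as Msx1 outputs, Lifr, a receptor of leukemia inhibitory factor signalling, fell by 1.5 ± 0.14 (SE, adjusted p = 0.0035) and passed in 5 of 5 fits without an array. Wnt11, a WNT ligand, was at least 2-fold higher at 6 h, at 1.29, and did not pass (adjusted p = 0.60). The list's medians lay between -0.14 and 0.04.

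**Figure D4:**
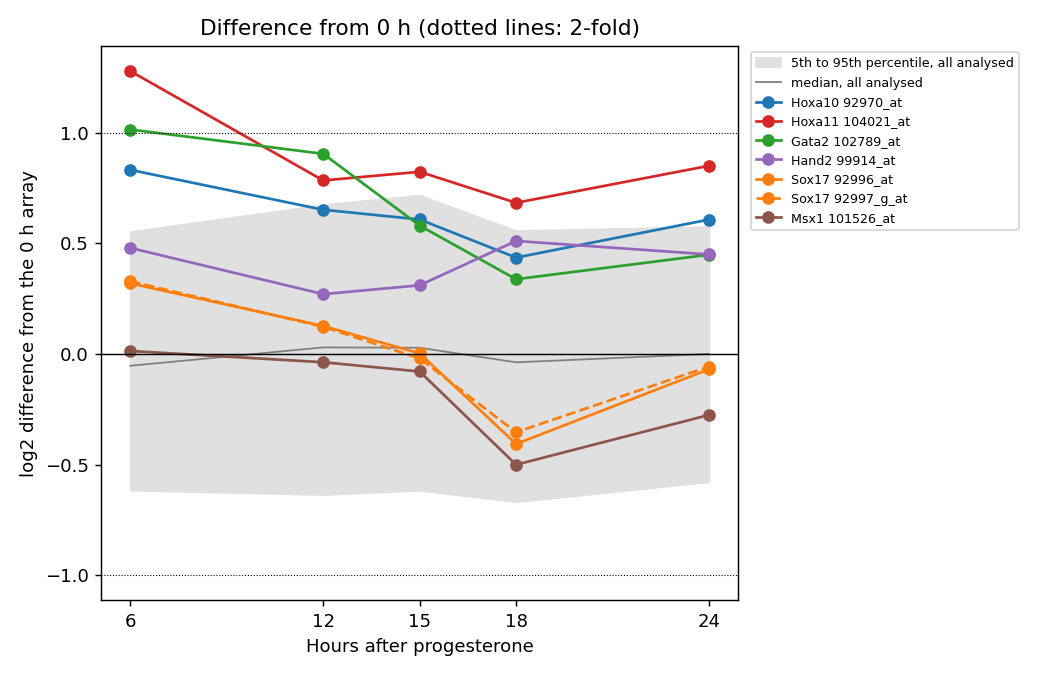
Log2 difference from the 0 h array (y axis) at 6, 12, 15, 18 and 24 h (x axis) for the 7 analysed member probe sets, 1 array per point, over the 5th to 95th percentile of all analysed probe sets (grey band) and their median (grey line); dotted lines mark 2-fold. Hoxa11, Gata2 and Hoxa10 start at 1.28, 1.02 and 0.83 at 6 h, and Sox17 and Msx1 dip at 18 h.

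Counted by size, 2 of the 7 probe sets were at least 2-fold higher at 6 h, those of Hoxa11 and Gata2, where 1.41% of all analysed probe sets were. At the later times 0 of the 7 were, against 1.83%, 2.05%, 1.14% and 1.06% of all in order of time. At least 1.5-fold higher were 3, 3, 2, 1 and 2 of the 7 at 6, 12, 15, 18 and 24 h, against 4.52%, 6.77%, 8.05%, 4.44% and 4.78% of all. At each of these times 0 of the 7 were 1.5-fold lower, against 5.82%, 5.98%, 5.71%, 6.83% and 4.95% of all. Above 0 h at all 5 times were 4 of 7, those of Hoxa10, Hoxa11, Gata2 and Hand2, and 21.6% of the 6808 probe sets above the floor on every array.

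A shape shared by most members was a high 6 h and a low 18 h array. The 6 h array was the highest of the 6 for 6 of the 7 probe sets, all except that of Hand2, and for 13% of the 6808. With median centring and with quantile normalization it was so for 6 of the 7 as well, and for 19.9% and 20% of all. For Msx1 this rests on a difference of 0.01 from 0 h. The 18 h array was the lowest progesterone array for the same 6, and for 26.6% of the 6808. Over all analysed probe sets the median step was -0.08 from 15 to 18 h and 0.04 from 18 to 24 h, so the overall level of the 18 h array moves with this pattern, and its part was not tested beyond the scalings that follow. With median centring the pattern at 18 h held for 6 of the 7 and for 19.7% of all, and with quantile normalization for 5 of the 7, without Hoxa11, and for 17.8% of all. The 2 Sox17 probe sets share a target and are not independent.

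Over the whole table limma called 2.69% of probe sets against 0 h (0.893% higher and 1.8% lower) and 0.31% in the trend over hours (0.194% higher and 0.116% lower), and 0 of the 7 members passed either fit. At an unadjusted p under 0.05 were 4 of 7 against 0 h (19% of all) and 0 of 7 in the trend (16.2% of all). The calls against 0 h were 69 higher and 139 lower, or 93 and 121 with median centring and 98 and 134 with quantile normalization, while the trend gave 15 higher and 9 lower, or 5 and 5 with quantile normalization. The fit against 0 h takes its spread from differences among the times after progesterone, and gives the single uninjected array that same spread. The trend takes its spread from the departures of all arrays, the uninjected one included, from a straight line over hours.

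**Figure D5:**
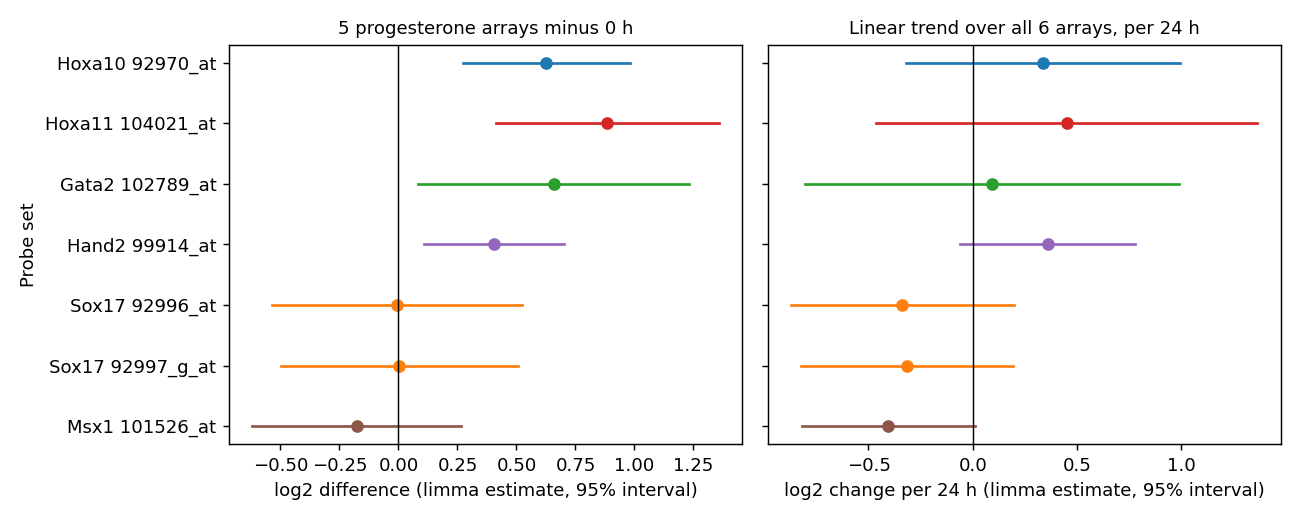
Limma estimates (points) with unadjusted 95% intervals (bars) for the 7 analysed member probe sets (y axis), as the log2 difference of the 5 progesterone arrays from 0 h (left x axis) and as the log2 change per 24 h over all 6 arrays (right x axis). The intervals of Hoxa10, Hoxa11, Gata2 and Hand2 lie above 0 on the left, and every interval spans 0 on the right.

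Of 22 other GATA, SOX, MSX and HAND family genes on the array, 12 were analysed, with medians between -0.20 and -0.10. Past 2-fold at 1 or more times were 0 of the 12 (3.08% of all analysed probe sets higher and 2.8% lower). Either fit called 0 (2.69% of all against 0 h and 0.31% in the trend). In that family Sox18, a SOX factor of endothelium, had its lowest array at 18 h like Sox17, at -0.84 on 161025_f_at and -0.44 on 104408_s_at, and was picked out after its values were seen. Of 26 other reproductive tract developmental factors on the array 24 were analysed, with medians of -0.02, -0.27, -0.35, -0.27 and -0.17. Of these 24, 8 were at least 1.5-fold lower at 18 h (6.83% of all analysed probe sets) and 6 at 24 h (4.95%), while 1 and 2 were 1.5-fold higher at these times (4.44% and 4.78%). At 1 or more times 4 were 2-fold lower (2.8% of all) and 1 was 2-fold higher (3.08%). Against 0 h, 0 rose (0.893% of all) and 2 fell (1.8%). Klf5, a zinc finger factor of epithelium, fell by 0.68 ± 0.12 (SE, adjusted p = 0.031), and Dlx6, a homeobox gene that was below the floor at 15 and 18 h, fell by 0.55 ± 0.10 (adjusted p = 0.030). Both passed in 1 of the 5 fits without a progesterone array, with adjusted p of up to 0.11 and 0.097. For Dlx6 the call was also lost with a floor at the 20th percentile (adjusted p = 0.12), with no floor (0.12) and with no intensity trend (0.051). Dlx5, the neighbour of Dlx6, had differences from -0.62 to -1.14 (adjusted p = 0.057), and Pax8, a paired box factor, from -1.10 to -0.60 (adjusted p = 0.074). Cebpb, a leucine zipper factor, and Klf4 were above 0 h at 6 h, at 0.37 and 0.55. They were at least 2-fold lower at 24 h and 18 h, at -1.14 and -1.01. Neither passed either limma fit (adjusted p = 0.087 and 0.19 in the trend over hours). Zbtb16, a zinc finger factor induced by steroids, was at least 2-fold higher at 6, 12 and 15 h, at 2.09, 1.35 and 1.18, and did not pass (adjusted p = 0.19).

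Since the RNA is of whole uterus, fewer cells of a type and less RNA per cell cannot be told apart. The tissue label was checked against marker lists, of which 14 of 15 genes of uterine epithelium, 7 of 10 of stroma and 8 of 9 of smooth muscle on the array were analysed, and the stromal marker Vim did not pass the filter. The summed linear signal of the epithelium markers was 8459 to 10165 on the progesterone arrays, against 12131 at 0 h. Their medians lay between -0.51 and -0.43. Below 0 h at all 5 times were 10 of the 14, and 27.8% of the 6808 probe sets above the floor on every array. Krt18, Epcam and Ltf fell against 0 h and Krt7 fell in the trend. The list did not move as one: Cldn3, a claudin, was above 0 h at all 5 times, with differences from 0.26 to 0.56, and Cldn4 and Cldn7 were above 0 h at 4 of 5 times. Lcn2 was at 1.14 at 6 h and below the floor at 18 and 24 h. Stroma markers summed to 13559 to 17877 on the progesterone arrays, against 14367 at 0 h, with medians between -0.07 and 0.13. Of these 7, the collagen genes Col1a1 and Col3a1 were above 0 h at all 5 times and rose in the trend, while Dcn (-0.40 to -0.02) and Thy1 (-0.82 to -0.28) were below 0 h at all 5 times and Lum was at -1.22 at 6 h. Over the 7 smooth muscle markers with a value on every array, which leaves out Actg2, the sum was 16013 at 6 h and 19583 to 22701 at 12 to 24 h, against 16709 at 0 h. Endothelium markers summed to 2210 to 2487 on the progesterone arrays, against 3033 at 0 h, with medians of -0.22, -0.09, 0.02, 0.00 and 0.10. Their member Cldn5 fell, and without it, a sum chosen after seeing the data, they came to 1670 to 2030 on the progesterone arrays, against 1913 at 0 h. The 7 analysed leukocyte markers summed to 3831 to 4487 on the progesterone arrays, against 5581 at 0 h. Of these 4 were below 0 h at all 5 times (27.8% of the 6808), and Cd68, Cd79a and Csf1r lay on both sides of it. The 3 adipocyte markers summed to 908 to 1296 on the progesterone arrays, against 1867 at 0 h, though Lep lay between -0.21 and 0.02. The 2 mesothelium markers summed to 353 to 501 on the progesterone arrays, against 520 at 0 h. Below 0 h at all 5 times were 0 of them (27.8% of the 6808). In these lists Adipoq, a fat cell hormone, was lowest at 15 h, at -2.53, and Upk3b was at -1.10 at 6 h. Of 5 ovary and oviduct genes on the array 2 were analysed, and these went opposite ways. Ovgp1, an oviduct glycoprotein, was at -0.76 to -1.56, while Cyp11a1 was above 0 h at all 5 times, at 0.11 to 0.58. Their sum was 464 to 639 on the progesterone arrays, against 899 at 0 h. Which cells gave the signal of Gata2 or of any other member was not measured, and the part of cell makeup in the members' values was not tested.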

How the data were processed

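Whole uterus of mice was profiled with 6 Affymetrix arrays, a single one for each time, grouped by the sample titles. The values, deposited by the authors on a log2 scale, carry no stated base; 2 raised to them gave 4 decimals for 99.8% of linear values under 2000. RNA preparation, labelling and hybridization followed the array maker, per the labels; for software, background correction and normalization, the sources used here state nothing. The 2% trimmed means of the arrays lay within 5% of their median, so values were used as deposited. Values under the 40th percentile (6.60) were set to that floor, and the 7731 probe sets above it on at least 2 arrays were analysed. Gene names came from the platform annotation, and sequences from RefSeq.

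R 4.3.3 with limma 3.58.1 was used for both fits (lmFit, eBayes, variance trend on intensity): all 5 arrays after progesterone against 0 h, and hours as a number. Benjamini-Hochberg adjustment ran over all probe sets tested, and the code was tested on simulated data. The verbs rose and fell are kept for an adjusted p below 0.05. Lists used 1 probe set per gene, the brightest. Named were all members, for members spanning 1 log2 unit the 3 genes of highest Pearson r that also span it and lie above the floor on all arrays, and list genes past 2-fold or called. Members and lists were chosen with earlier results of these data known. Alternatives were other floors, no floor, no filter, other normalizations, no intensity trend and each array left out.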

Additional observations from a re-analysis of the deposited data

How the results depend on the processing

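The direction of the mean difference from 0 h of Hoxa10, Hoxa11, Gata2, Hand2 and Msx1 was kept in every setting in which each was analysed, and Hand2 dropped out with the floor at the 60th percentile. For Sox17 the sign turned to 0.020 with median centring on 92996_at and to -0.040 with quantile normalization on 92997_g_at, and arrays left out gave -0.087 to 0.095 and -0.077 to 0.094. Slopes over hours ran with arrays left out from -0.36 to 0.57 for Hoxa10, -0.55 to 0.84 for Hoxa11 and -0.91 to 0.38 for Gata2, each below 0 only without 0 h. The members called against 0 h went from 0 to 2 without 6 h. Members past 2-fold at any time were 2, or 3 with a floor at the 20th percentile, which is the table's lowest value, where the dim Gata2 probe set entered. Probe sets called against 0 h were 208 and 42 to 590 with arrays left out. The share that rose was 33.2%, or 42.2% with quantile normalization, 43.5% with median centring and 9.82% with no filter. In the trend 24 were called with limma, 53 with no floor, 10 with quantile normalization and 0 with no filter (1219 at an unadjusted p under 0.05), and 0 to 147 with arrays left out, where the 0 was without 12, 15 or 18 h (929 to 1119 at an unadjusted p under 0.05). The causes were not tested. Among the lists, added after seeing the data, Hoxc5 passed 2-fold only with a lower floor or none. No paired analysis was possible because each group has 1 array and the labels give no replicate numbers.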
